A study of Mus musculus with 8 samples.

Results

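The 5 uroplakin genes of the mouse, Upk1a, Upk1b, Upk2, Upk3a and Upk3b, were followed in whole kidneys at embryonic day 14.5. Members were all non-control probes on the array whose RefSeq accession belongs to one of these genes, which gave 6 probes, 2 of them for Upk1b and 1 for each other gene, out of 56605 probes and 22911 named genes. Kidneys of wild-type embryos were compared with those of a conditional Mdm4 mutant, in which a Cre recombinase transgene under the Hoxb7 promoter removes Mdm4, an inhibitor of p53, in the ureteric bud and the epithelium that grows from it. The rest of the kidney, including stroma, nephron progenitors and vessels, keeps the gene, and the labels give neither strain nor sex nor whether wild-type embryos carried a transgene. The 4 wild-type RNAs were each matched with 1 of 4 mutant RNAs, and every such pair was hybridised on 2 two-colour Agilent arrays with the dyes exchanged, so that n = 4 pairs. Nothing in the labels says that an RNA came from a single embryo, so p-values speak only of the scatter among the 4 pairs and some of that may be technical. Log2 levels in the mutant RNAs of pairs 2 and 3 lay close together. Upk3a was at 7.24 and 7.23 in them, and Y-linked Eif2s3y at 8.70 and 8.56. In the mutant RNAs of pairs 1 and 4, Upk3a was at 7.49 and 6.59 and Eif2s3y at 10.59 and 10.86. Whether the mutant RNAs of pairs 2 and 3 are independent was not tested, so the 4 pairs may not be 4 independent replicates. Every SE, interval and p-value below takes them as 4 and may overstate the precision.

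Uroplakins are membrane proteins of the urothelium, the layered lining of the renal pelvis, ureter and bladder. Upk1a and Upk1b encode tetraspanins, proteins that cross the membrane several times. Upk2 encodes the partner of uroplakin 1a, and Upk3a and Upk3b encode alternative partners of uroplakin 1b. The pairs assemble into rigid plaques on the surface of the outermost umbrella cells, which make the lining tight, and mice without Upk3a show reflux of urine into the ureter. Upk3b is also known as a transcript of mesothelium, the lining of body cavities and of the surface of organs. The ureteric bud, in which the Hoxb7 promoter is active, forms the collecting ducts inside the kidney and the epithelium of the ureter outside it.

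Upk3a carried by far the widest spread of the 5 genes, and the 200 bases upstream of its start are shown beside those of Upk1a, the most even, and Upk3b. They are printed 5' to 3' on the strand of the gene, from RefSeq for GRCm38.p6, which lists a promoter for 3 of the 5 genes. The windows are chr15:85016941-85017140 on the plus strand for Upk3a, chr7:30612735-30612934 on the minus strand for Upk1a and chr5:136038296-136038495 on the plus strand for Upk3b. Capitals mark matches, searched on both strands, to TATATA, to GGGCGG, to the GATA motif NGATAN with A or T first and A or G last, and to the decamer of the p53 response element. TATAAA and CANNTG, the E-box, were searched too, and the E-box, found in 58.2% of windows, is not marked.
Upk3a: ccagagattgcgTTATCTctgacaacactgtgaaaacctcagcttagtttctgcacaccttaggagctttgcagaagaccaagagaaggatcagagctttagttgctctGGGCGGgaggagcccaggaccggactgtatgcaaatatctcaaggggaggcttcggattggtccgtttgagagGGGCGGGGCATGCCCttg
Upk1a: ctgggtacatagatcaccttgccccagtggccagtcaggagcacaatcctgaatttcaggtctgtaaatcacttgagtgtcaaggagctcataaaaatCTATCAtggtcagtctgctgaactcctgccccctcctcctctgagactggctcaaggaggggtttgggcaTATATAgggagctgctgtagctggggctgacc
Upk3b: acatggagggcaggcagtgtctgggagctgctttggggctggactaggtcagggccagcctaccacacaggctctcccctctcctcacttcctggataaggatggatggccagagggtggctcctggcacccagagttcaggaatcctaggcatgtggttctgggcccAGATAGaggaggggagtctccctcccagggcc
The Upk3a window held GGGCGG at -91 to -86 and at -18 to -13, and 1 palindromic p53 decamer, GGGCATGCCC, at -13 to -4, whose first base is shared with the second GGGCGG. A p53 decamer was present in 5.59% of 32851 promoter windows of this length in the table, and GGGCGG in 31.0%. A pair of decamers with up to 13 bases between them, the full p53 element, was found in 0.0457% of windows and in 0 of these 3. TATATA lay at -32 to -27 of Upk1a, and 4.29% of windows held it. Each of the 3 windows had 1 GATA match, where 21.4% of all windows had at least 1, and TATAAA, present in 9.96%, matched none of the 3. These are matches of letters and not measured binding sites.

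Of the 5 genes, 4 had a probe that passed the filter on dim signal, that is, Agilent's well-above-background flag in 6 or more of 8 channels in wild type or in mutant. Upk1a was well above background in 8 of 8 wild-type and 8 of 8 mutant channels and Upk3a in 6 and 6. Upk1b, on the probe used, was so in 4 wild-type and 6 mutant channels, and Upk3b in 4 and 8, so that both passed through the mutant alone. The second Upk1b probe reached 1 and 1, and Upk2 reached 0 of 16 channels, so that Upk2 was not well above background in any RNA and was not tested. Other genes of mature urothelium were dim as well. Psca, a surface antigen of urothelium, and Snx31, a sorting protein of umbrella cells, reached 0 of 16 channels, whereas Krt20, the keratin of umbrella cells, and Krt5 and Trp63, markers of the basal layer, were well above background in all 16. Among the 24 urothelial genes listed, 23 could be measured, so urothelial keratins and factors were present where Upk2 was not detected; many of these genes are also active in collecting duct or ectoderm.

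None of the 4 tested uroplakins passed the test for a difference between mutant and wild type. With limma and Benjamini-Hochberg adjustment over 16013 genes, 0 genes passed at an adjusted p of 0.05 in either direction (0% higher and 0% lower), and none of the 4 had an unadjusted p under 0.05, against 7.01% of all genes higher and 3.6% lower. The smallest adjusted p of any gene was 0.0750. With the arrays median-centred in place of loess the unadjusted counts were 3774 higher and 92 lower, against 1123 and 576 with loess. Under median centring the median gene stood at 0.14, and under loess at 0.01. Ratios below are log2 of mutant over wild type after loess unless stated.

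Upk3a had the lowest mean, at -0.48 ± 0.28 (SE, n = 4 pairs), 0.716-fold with a 95% interval from 0.444 to 1.15 (limma adjusted p = 0.569). Its ratio was -1.35 in pair 1, -0.59 in pair 2, 0.60 in pair 3 and -0.59 in pair 4. Upk3a was thus lower in the mutant in 3 of 4 pairs and higher in pair 3. Over all genes, 31.7% were lower in at least 3 of 4 pairs and 7.84% in all 4, and 46.1% had a mean below 0. An exact sign-flip permutation test over the pairs, two-sided, gave p = 0.5, and 0.13 is the smallest that 4 pairs allow. Leaving out pair 3 moved the mean to -0.84 (limma adjusted p = 0.206), and leaving out pair 1 moved it to -0.19 (limma adjusted p = 0.748).

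**Figure D1:**
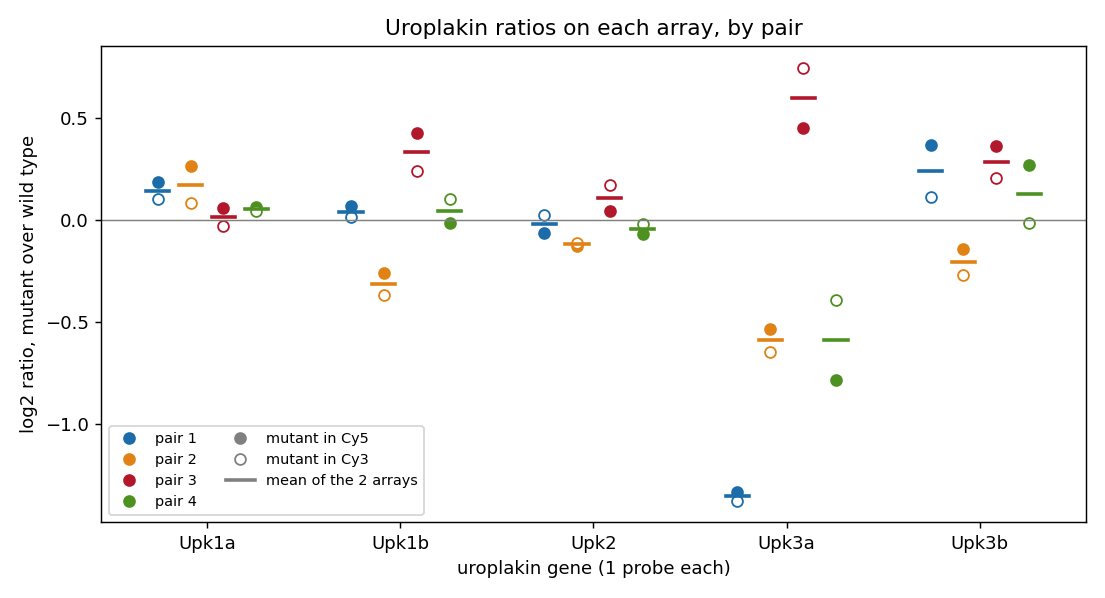
Log2 ratio of mutant over wild type on each of the 8 arrays for 1 probe of each uroplakin gene, coloured by pair; filled points have mutant RNA in Cy5, open points in Cy3, and bars are the mean of the 2 arrays of a pair. The bars of Upk3a run from -1.35 in pair 1 to 0.60 in pair 3, with single arrays from -1.37 to 0.75, while those of Upk1a lie between 0.01 and 0.17, with single arrays from -0.03 to 0.26, and Upk2 is a probe not well above background in any channel.

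The sign of Upk3a in each pair was the same in both dye orientations. With mutant RNA in Cy5 the ratios of pairs 1 to 4 were -1.33, -0.53, 0.45 and -0.78, and with mutant RNA in Cy3 they were -1.37, -0.64, 0.75 and -0.39. The 2 arrays of a pair differed by 0.21 on average, against an SD of 0.80 between pairs. Only 1.09% of the tested genes had a larger SD between pairs, and the median SD was 0.14. The opposite sign in pair 3 was therefore measured on 2 arrays and not on 1.

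By RNA, the log2 level of Upk3a was 8.84, 7.83, 6.63 and 7.18 in the wild-type RNAs of pairs 1 to 4 and 7.49, 7.24, 7.23 and 6.59 in the mutant RNAs. The groups overlapped, with 7.62 ± 0.95 (SD, n = 4) in wild type and 7.14 ± 0.38 in the mutant. In pairs 2 and 3 the mutant levels were nearly equal. The opposite signs of these pairs thus followed their wild-type levels, 7.83 and 6.63. The wild-type RNA of pair 1 was the highest of the 8, and that of pair 3 and the mutant RNA of pair 4 were the lowest. These last 2 were not well above background in either dye, so the ratios of pairs 3 and 4 are set against a level near the background. The spots show this before any processing. In Cy5, the wild-type RNA read 660.5, 254.5, 83.0 and 179.5 over local backgrounds of 74.0, 73.0, 74.0 and 85.0 in pairs 1 to 4. On the arrays with exchanged dyes the mutant RNA in Cy5 read 194.0, 213.0, 182.0 and 78.0 over backgrounds of 76.0, 79.5, 78.0 and 78.0.

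Background treatment sets the size of these ratios. The offset of 50 added during background correction draws dim probes towards 0. With Agilent's own background-subtracted signals the ratio of Upk3a was -2.24, -1.32, 2.66 and -2.58 in pairs 1 to 4, with the same sign in each pair and a mean of -0.87 (limma adjusted p = 0.733). Subtraction enlarges the ratios of a dim probe and their spread alike.

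**Figure D2:**
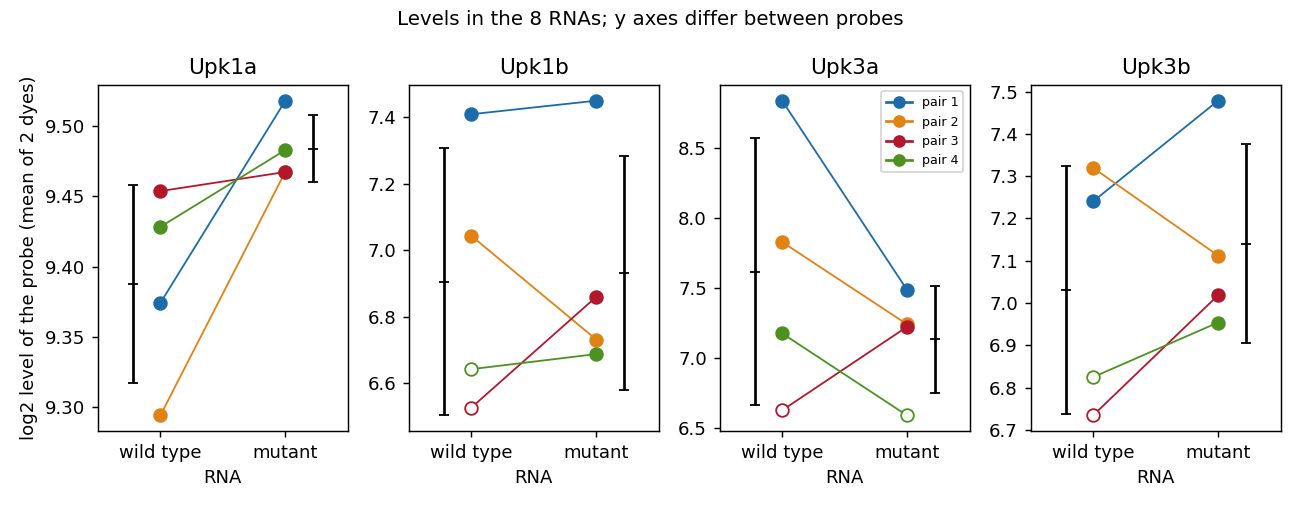
Log2 level of the probe in each of the 4 wild-type and 4 mutant RNAs (mean of the 2 dyes) for Upk1a, Upk1b, Upk3a and Upk3b; lines join the 2 RNAs of a pair, open points were not well above background in either dye, and black marks give the mean and SD of a group. The Upk1a panel spans only 9.29 to 9.52, and its 4 mutant RNAs lie above all 4 wild-type RNAs; in the other panels the groups overlap.

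Upk3b, the alternative partner of uroplakin 1b, was at 0.11 ± 0.09 (SE, n = 4, limma adjusted p = 0.672), 1.08-fold with a 95% interval from 0.924 to 1.26. Its ratios in pairs 1 to 4 were 0.24, -0.21, 0.28 and 0.13. It was higher in the mutant in 3 of 4 pairs, as were 38.4% of all genes in at least 3, and lower in pair 2. Its level was 7.24, 7.32, 6.73 and 6.82 in wild type and 7.48, 7.11, 7.02 and 6.95 in the mutant, so that the groups overlapped. The wild-type RNAs of pairs 3 and 4 were not well above background in either dye. In pair 4 the ratio was 0.27 with mutant RNA in Cy5 and -0.01 with it in Cy3. On Agilent's processed signals the mean was 0.59 (limma adjusted p = 0.560), and without pair 2 it was 0.22, and without pair 3 it was 0.05.

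Upk1b, the tetraspanin that pairs with either Upk3 protein, was at 0.03 ± 0.11 (SE, n = 4, limma adjusted p = 0.938), 1.02-fold with a 95% interval from 0.854 to 1.22. The probe used gave 0.04, -0.31, 0.33 and 0.05 in pairs 1 to 4. Pair 2 was lower and pair 3 higher in both dye orientations, and the other 2 pairs lay near 0. In pair 4 the orientations had opposite signs, at 0.10 and -0.01. The level was 7.41, 7.04, 6.53 and 6.64 in wild type and 7.45, 6.73, 6.86 and 6.69 in the mutant, with the 2 highest values in the 2 RNAs of pair 1 and overlap of the genotypes. The wild-type RNAs of pairs 3 and 4 were not well above background in either dye. On Agilent's processed signals the ratios were 0.05, -1.18, 2.31 and 0.30, with the same sign in each pair and a mean of 0.37 (limma adjusted p = 0.806), above the 95% interval given for the offset-corrected values. The second Upk1b probe, above background in 1 channel of each genotype, both in pair 1, gave 0.09, -0.07, 0.07 and -0.02.

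Upk1a, the tetraspanin partner of uroplakin 2, was the most even member. Its level was 9.37, 9.29, 9.45 and 9.43 in the wild-type RNAs and 9.52, 9.47, 9.47 and 9.48 in the mutant RNAs. All 4 mutant RNAs lay above all 4 wild-type RNAs, by a small margin, and 3.3% of all genes had mutant levels above every wild-type level and 1.52% below every one. The ratios of pairs 1 to 4 were 0.14, 0.17, 0.01 and 0.05, with a mean of 0.10 ± 0.06 (SE, n = 4, limma adjusted p = 0.573), 1.07-fold with a 95% interval from 0.971 to 1.18. They were above 0 in 4 of 4 pairs, as for 12.1% of all genes, of which 53.9% had a mean above 0, and on 7 of 8 arrays, and the exact sign-flip permutation p was 0.13, that smallest value. Median centring gave 0.22, where the median of all genes was 0.14. Of the tested genes, 84.2% had a larger SD between pairs than Upk1a.

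Upk2, the partner of uroplakin 1a, stayed at the background. Its spots in Cy5 read 80.0 to 99.0 over local backgrounds of 84.0 to 93.5, and those in Cy3 read 25 to 33 over 20 to 24. The log2 ratios on such spots, -0.02, -0.12, 0.11 and -0.04 in pairs 1 to 4, are those of background and carry no order of the genotypes. The level of Upk2 was therefore not detectable on these arrays in either genotype, which is not evidence of its absence.

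Upk3bl, a gene related in sequence to Upk3b and no member of the set, was well above background in all 16 channels on each of its 2 probes. The probe used was at 0.05, -0.11, 0.35 and 0.90 in pairs 1 to 4 (mean 0.29 ± 0.16, SE, limma adjusted p = 0.555), and the other at 0.02, -0.15, 0.41 and 0.47. Upk3bl, Upk1b and Upk3b each had their lowest ratio in pair 2. Neither Upk3bl nor any of the 4 tested uroplakins passed the adjusted threshold. No gene of the 16013 tested did, so this does not measure how far they moved.

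Levels also differed between RNAs of one genotype. Against its mean over all 8 RNAs, Upk1b stood at 0.49, 0.12, -0.39 and -0.28 in the wild-type RNAs of pairs 1 to 4 and at 0.53, -0.19, -0.06 and -0.23 in the mutant RNAs. Upk3b stood at 0.15, 0.23, -0.35 and -0.26 in wild type and at 0.39, 0.03, -0.07 and -0.13 in the mutant. Upk3a stood at 1.46, 0.45, -0.75 and -0.20 in wild type and at 0.11, -0.14, -0.15 and -0.79 in the mutant. Upk1a lay only between -0.14 and 0.08 in the 8 RNAs. It stood at -0.06 in the wild-type RNA of pair 1 and at 0.02 in that of pair 3. Upk1b was highest in the 2 RNAs of pair 1, Upk3b in the mutant RNA of pair 1 and the wild-type RNA of pair 2, and the wild-type RNA of pair 3 was the lowest for Upk1b and Upk3b. A list of 14 genes of ureter mesenchyme and smooth muscle, the tissue that wraps the ureter, had its highest medians in the 2 RNAs of pair 1, at 0.33 (wild type) and 0.25 (mutant), and lay between -0.11 and -0.02 in the other 6. Tetraspanin genes other than Upk1a and Upk1b were highest in the same 2 RNAs, at medians of 0.15 and 0.11. The urothelial and vesicle traffic lists were highest in the wild-type RNAs of pairs 1 and 2, at 0.35 and 0.27 and at 0.17 and 0.11. The 9 mesothelium genes other than Upk3b were highest in the RNAs of pair 1, at 0.17 (mutant) and 0.09 (wild type). In the wild-type RNA of pair 3 the mesothelium, vesicle traffic and tetraspanin lists had their lowest medians, at -0.18, -0.20 and -0.11. The median of all genes lay between -0.04 and 0.03. How much ureter each RNA contained was not measured, and its part in the uroplakin levels was not tested. In RNA from whole kidneys, fewer cells of a type and less RNA per cell cannot be told apart.

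The 3 named genes whose pair ratios lay nearest to those of Upk3a were Aqp3, the water channel of the basolateral membrane of collecting duct cells, Fxyd4, a regulator of the sodium pump in collecting duct, and Nr0b1, a nuclear receptor of adrenal and gonad. Their root mean square differences from Upk3a over the 4 pairs were 0.18, 0.23 and 0.27, where that of Upk3a from 0 was 0.85. Aqp3 was at -1.27, -0.48, 0.47 and -0.89, Fxyd4 at -0.996, -0.81, 0.56 and -0.39, and Nr0b1 at -0.83, -0.51, 0.48 and -0.59. All 3 were, like Upk3a, lower in pairs 1, 2 and 4 and higher in pair 3, which follows from how they were picked and is not a separate result. That order of signs was found in 9.41% of all genes. The other tested members had ratios too close to 0 for a nearest gene to be named.

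**Figure D3:**
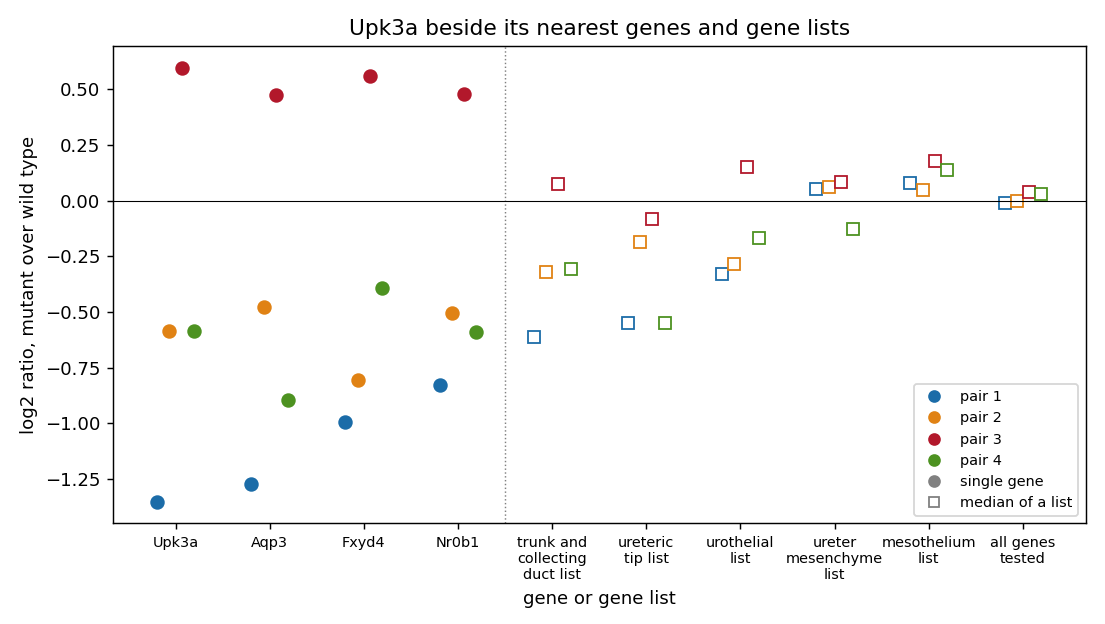
Log2 ratio of mutant over wild type in each of the 4 pairs for Upk3a, the 3 genes with the smallest root mean square difference from it, and the medians of gene lists (open squares), coloured by pair. In Upk3a, Aqp3, Fxyd4 and Nr0b1 pair 3 lies between 0.47 and 0.60 and the other pairs below 0; the medians of the trunk and urothelial lists show the same order of signs with smaller sizes, and that of all genes lies near 0.

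The sign of Upk3a in a pair was opposite to that of Y-linked transcripts. The mean ratio of Eif2s3y, Kdm5d and Ddx3y was 3.1, 1.53, -1.72 and 3.1 in pairs 1 to 4, so that the RNAs of each pair differed in Y-linked RNA, and pair 3 differed in the other direction. Eif2s3y was at 6.68, 6.44 and 6.76 in the wild-type RNAs of pairs 1, 2 and 4 but at 10.58 in that of pair 3, and at 10.59, 8.70, 8.56 and 10.86 in the mutant RNAs. With this mean as a covariate, Upk3a was at 0.0060 ± 0.17 (SE, limma adjusted p = 0.995), Upk1a at 0.07, Upk1b at 0.12 and Upk3b at 0.14. This covariate and the genotype overlap in 3 of the 4 pairs, and the part of sex in the ratios of Upk3a was not tested beyond this fit.

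Genes that regulate or accompany uroplakins in urothelium were lower more often than higher. Of 23 measured urothelial keratins and transcription factors 15 were lower and 8 higher, 6 lower and 2 higher at an unadjusted p under 0.05, and 0 passed adjusted over all genes. Over all genes 46.1% were lower and 53.9% higher, 3.6% and 7.01% at that p, so that the 2 higher genes are a share near the background. The list median was -0.12, with -0.33, -0.29, 0.15 and -0.17 in pairs 1 to 4, beside a median of 0.01 over all genes. Of the 23 genes, 13 were lower in pairs 1, 2 and 4 and higher in pair 3, as was Upk3a and as were 9.41% of all genes. With median centring the list was at -0.03, below the median of all genes, and with the Y-linked covariate at -0.0094. The trunk and collecting duct list shares Krt8, Krt18, Krt19 and Gata3 with it.

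Within this list the secreted signal gene Shh, which the ureteric epithelium sends to the mesenchyme around it, was at -0.50 ± 0.18 (SE, limma adjusted p = 0.442), with -1.04, -0.55, 0.14 and -0.55. Gata3, a transcription factor gene of the ureteric epithelium, was at -0.48 ± 0.16, Klf5, a regulator of epithelial maturation in bladder, at -0.34 ± 0.14, and the simple-epithelium keratin genes Krt8 and Krt18 at -0.42 ± 0.12 and -0.42 ± 0.13. These 4 genes, like Shh, were lower in pairs 1, 2 and 4 and above 0 in pair 3. Their size depended on the processing. Over the alternatives given below, Gata3 ran from -0.81 to -0.14, Klf5 from -0.52 to -0.11, Krt8 from -0.67 to -0.16 and Krt18 from -0.59 to -0.20. Krt20 went the other way, at 0.41, 0.21, 0.26 and 0.45 in pairs 1 to 4 (mean 0.33 ± 0.07, limma adjusted p = 0.304), higher on 8 of 8 arrays. Klf4, a factor of epithelial differentiation, was at 0.48 ± 0.14 and below 0 in pair 3 alone, and ran from 0.20 to 0.77 over the alternatives. Trp63, which encodes the p53 relative that marks basal cells, was at -0.19 ± 0.07, with -0.02, -0.13, -0.26 and -0.34. Foxa1, a forkhead factor of endoderm and urothelium, was at -0.12 ± 0.22 and ran from -0.73 in pair 1 to 0.69 in pair 3, and its mean turned above 0 without pair 1 and with the Y-linked covariate. Pparg, which drives urothelial differentiation, was at 0.14 ± 0.09 and the basal keratin genes Krt5 and Krt14 at 0.05 ± 0.09 and 0.12 ± 0.06, of which Krt5 turned below 0 without pair 1 and Krt14 where mutant RNA carried Cy5.

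**Figure D4:**
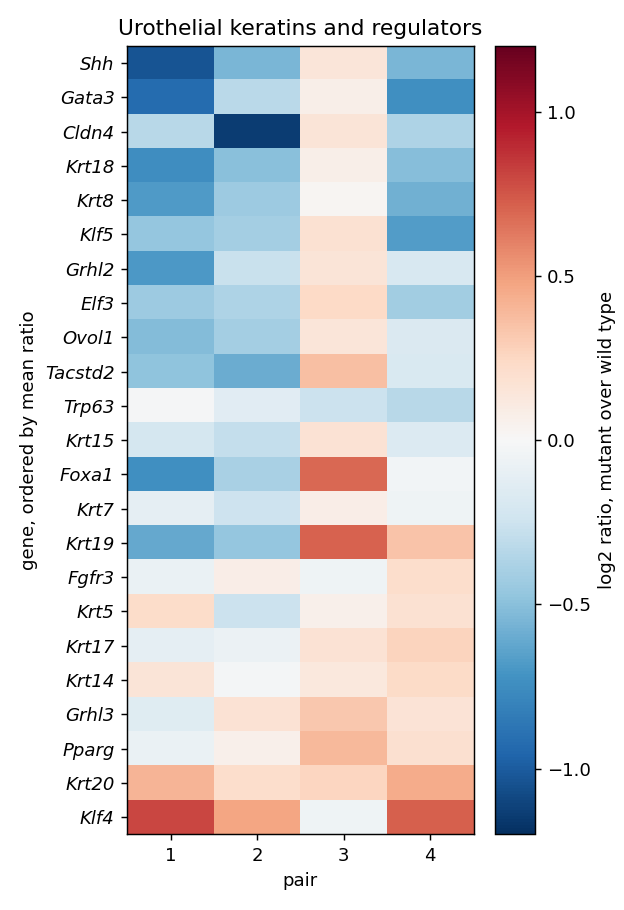
Log2 ratio of mutant over wild type for the 23 measured urothelial keratins and transcription factors (rows, ordered by mean ratio) in each of the 4 pairs (columns), with red for higher and blue for lower in the mutant. Most rows are blue in pairs 1, 2 and 4 and pale red in pair 3; Krt20 is red in all 4 pairs.

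Genes that carry uroplakin vesicles to the cell surface gave no gene at an unadjusted p under 0.05 in limma's test, and 0 of 10 passed after adjustment. Their median was 0.03, with 6 of 10 higher. With median centring, which put the median of all genes at 0.14, all 10 were higher, at a median of 0.16, and without pair 3 the median was -0.03. Rab8a and Myo5b, which encode a small GTPase and a motor protein of vesicle transport, were at -0.12 ± 0.07 and -0.13 ± 0.12, and at 0.04 each with median centring, below the 0.14 of all genes. Vps33a and Rab27b, parts of the late sorting and docking machinery, were at 0.12 ± 0.07 and 0.10 ± 0.10. Mal, a lipid-raft protein needed to insert uroplakins in the apical membrane, ran from -0.51 in pair 1 to 0.41 in pair 3 (mean -0.01 ± 0.16, and 0.15 with median centring).

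Upk1a and Upk1b belong to the tetraspanin family, of which 28 other genes were measured. Of these, 14 were higher and 14 lower, with a median of 0.0099, and at an unadjusted p under 0.05 limma gave 2 higher and 1 lower and, after adjustment, 0. These shares are near the 7.01% and 3.6% of all genes. Cd81, a widely expressed tetraspanin, was at 0.19 ± 0.06, Tspan2 at 0.24 ± 0.09, Tspan12 at 0.18 ± 0.09 and Tspan33 at -0.22 ± 0.09. With median centring 22 of the 28 were higher, at a median of 0.14, beside 0.14 for all genes.

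Genes of the ureteric epithelium inside the kidney were lower in most pairs. In the trunk and collecting duct list 24 of 25 genes were lower, 10 of them at an unadjusted p under 0.05 and 0 after adjustment, and 14 had the signs of Upk3a in all 4 pairs, where over all genes 46.1% were lower, 3.6% at that p, and 9.41% had those signs. The list median was -0.61, -0.32, 0.07 and -0.31 in pairs 1 to 4. The genes with the smallest p were Krt23 at -0.70 ± 0.17, Wnt9b at -0.60 ± 0.15, and Krt8 and Krt18. In the ureteric tip list 11 of 12 genes were lower, with medians of -0.55, -0.19, -0.08 and -0.55, and 1 had the signs of Upk3a. Among its genes Tmem59l was at -0.57 ± 0.15, Gfra1 at -0.52 ± 0.12 and Sox8 at -0.40 ± 0.09, each below 0 in pair 3 as in the other pairs. With median centring 18 of 25 trunk genes and 9 of 12 tip genes were lower. With the Y-linked covariate the trunk list was at -0.06 with 15 of 25 lower, and the tip list at -0.18 with 10 of 12 lower.

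Markers of neighbouring tissues were read beside Upk1b and Upk3b. Of 9 mesothelium genes other than Upk3b, 6 were higher, with a median of 0.09 (8 of 9 with median centring and 5 of 9 on Agilent's processed signals), and 2 were higher at an unadjusted p under 0.05, Podxl at 0.24 ± 0.09 and Gpm6a at 0.27 ± 0.10. Over all genes 53.9% were higher and 46.1% lower, with 7.01% and 3.6% at that p. These are the shares to set beside each count of this paragraph, and no gene passed after adjustment. Podocytes also express Podxl and Wt1, the latter at 0.30 ± 0.13. Wt1 was at 0.60 with mutant RNA in Cy5 and 0.00051 with it in Cy3, and Podxl at 0.37 and 0.11. Msln, which encodes mesothelin, was at -0.11 ± 0.08, Lrrn4 at 0.09 ± 0.10 (below 0 on Agilent's processed signals), and Bnc1 reached 0 wild-type and 2 mutant channels. In the list of ureter mesenchyme and smooth muscle 9 of 14 genes were lower, with a median of -0.06 that was at 0.07 with median centring and at 0.06 on arrays with mutant RNA in Cy5. Tbx18, needed for the mesenchyme around the ureter to form smooth muscle, was at 0.57 ± 0.11, Aldh1a1 at 0.52 ± 0.14, Sfrp2 at 0.21 ± 0.05, and Ptch1, the receptor and a transcriptional target of Shh, at -0.51 ± 0.11, with -0.59, -0.57, -0.10 and -0.79. Ptch1 ran from -0.84 to -0.19 over the alternatives. In a list of Wolffian duct, Müllerian duct and gonad 4 of 6 measured genes were higher (median 0.06), with Spag11b at 0.40 ± 0.07 and Amhr2 at 0.50 ± 0.13, Dhh at 0.11 ± 0.08 and, lower, Foxl2 at -0.26 ± 0.12, while Lcn8, Cst11 and Amh reached 0 of 16 channels. The part of these cell types in the uroplakin values was not tested.

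The effect of the genotype elsewhere was read from Mdm4 and p53 targets on the same arrays. The brightest of 4 Mdm4 probes was at -0.18 ± 0.07 (SE, limma adjusted p = 0.471), and this does not check the labels, because cells outside the ureteric lineage keep Mdm4 and where the deletion lies against the probes was not given. On that probe the mean was -0.00062 with mutant RNA in Cy5 and -0.36 with it in Cy3. Of 18 p53 targets, 17 were higher, and 11 were higher in all 4 pairs, with a median of 0.33, where over all genes 53.9% were higher and 12.1% were so in all 4 pairs. In pair 3, where Upk3a had the opposite sign, their median was 0.27, beside 0.55, 0.36 and 0.56 in pairs 1, 2 and 4. The list was chosen with earlier results of these data known, so its counts are not an independent test.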

How the data were processed

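Whole kidneys of 4 wild-type and 4 mutant RNAs were measured on 8 two-colour Agilent arrays, 100 ng of RNA each per the labels' protocols. The scanner files were deposited with median spot and background intensity, processed signal intensity and flags, per the file headers; these name Agilent Feature Extraction 10.7.3.1, whereas the submitters' processing notes name 8.5.1.1. The series table, as deposited, gives log10 of Cy5 over Cy3 and differed from the scanner files by at most 0.0050.

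Median signals were corrected with normexp (offset 50) and loess in limma 3.58.1 under R 4.3.3, with control spots (3671) and outlier spots (95 to 156 per array, 0 of a uroplakin probe) at weight 0 and then left out. Ratios were turned to mutant over wild type, and the 2 arrays of a pair, which hold the same RNAs, were averaged. Of 62976 spots per array, 60.7% to 70.2% of non-control spots carried the well-above-background flag per channel, and 0 were saturated. Precision is limited by there being 4 pairs, which may not be independent. Probes were named by RefSeq accession (GRCm38.p6 table), 32994 of 56605. A gene was represented by its brightest probe among the 34594 kept, and lmFit with eBayes tested 16013 genes against 0, two-sided. Levels are channel values after Aquantile scaling, averaged over the 2 dyes, and are compared within a probe only.

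The members and lists were chosen with earlier results of these data known. Genes named were the members, Upk3bl, Mdm4, the 4 genes of smallest p in a list (any gene of the urothelial, mesothelium and vesicle lists) and the 3 nearest to a member whose root mean square ratio reached 0.30; 1 gene of the lists is not reported here. The fit was tested on simulated data. Alternatives were other background corrections and scalings, no filter, the mean over probes, 1 dye orientation, all 8 arrays with the pair as a block, a Y-linked covariate, each pair left out, and the deposited table.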

Additional observations from a re-analysis of the deposited data

How the results depend on the processing

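For the uroplakin genes 0 were past the adjusted threshold in each of the 15 alternatives, where the limma adjusted p ran from 0.177 to 0.872 for Upk1a, 0.768 to 0.996 for Upk1b, 0.206 to 0.995 for Upk3a and 0.297 to 0.966 for Upk3b. Upk1a and Upk3b stayed above 0 in all 15, from 0.05 to 0.22 and from 0.0080 to 0.63. With no filter, the mean over probes or all 8 arrays in 1 fit, their values equal the main ones by construction. Upk3b, which passed the filter through the mutant alone, was at 0.21 with mutant RNA in Cy5 and 0.0080 with it in Cy3. Upk3a stayed below 0 in 14 of 15 and was at 0.0060 with the Y-linked covariate. Upk1b turned to -0.012 with median centring and to -0.0014 on arrays with mutant RNA in Cy3, and ran from -0.075 to 0.41 (deposited table), with 0.37 on Agilent's processed signals, against 0.03. With 1 pair left out, Upk1a ran from 0.07 to 0.12, Upk1b from -0.075 (without pair 3) to 0.14, Upk2 from -0.06 to 0.01, Upk3a from -0.84 to -0.19 and Upk3b from 0.05 to 0.22. Upk2, at the background, was at -0.24 on Agilent's processed signals and -0.21 in the deposited table, against -0.02. All 8 arrays in 1 fit with the pair as a replicate block left Upk3a at -0.48 (limma adjusted p = 0.429) and called 39 genes, none of them a uroplakin, and median centring called 42, against 0. The other alternatives, each pair left out included, called 0 genes. Signal near background limits Upk1b, Upk3a and Upk3b, and Upk2 gave no level.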
